A study of Mus musculus with 9 samples.

Results

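EC4 is a label for shallow endothelial cells in the submitters' annotation of single-cell RNA sequencing of mouse thyroid. Its members are the cells that carry this label, 1046 of 10186 cells (10.3%). They hold 1269247 unique molecular identifiers (UMIs, each counting 1 captured transcript). The label was given before this re-analysis, and how it was made is not given in the sources used here.

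The mice were male C57BL/6 animals. Their age is given as 10 to 12 weeks in the study's design text and as 10 to 14 weeks in its treatment protocol. Each mouse received 1 antibody injection into the peritoneum, and the labels give 7 days for every treatment. RW mice received a control antibody against ragweed at 40 mg/kg. The aJ1aJ2 mice received antibodies against the Notch ligands Jag1 and Jag2 at 20 mg/kg each. The aN1aN2 mice received antibodies against the Notch receptors Notch1 at 5 mg/kg and Notch2 at 10 mg/kg. There were 3 samples per group, each a pool of thyroids from 6 mice, so a replicate is a pool and differences between single mice are not seen. The labels name no engineered allele. The sample titles carry internal numbers in 3 ranges. RW 3 and aJ1aJ2 1 share the first range (called series A). The next range, series B, takes in the other 2 RW and the other 2 aJ1aJ2 samples. All aN1aN2 samples, and none besides them, fall in series C. Receptor blockade and series C therefore cannot be told apart in any comparison with aN1aN2.

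Thyroid follicles are wrapped in a dense bed of capillaries whose walls are perforated by fenestrae, small pores closed by a diaphragm that is built from the protein Plvap. VEGF made by thyrocytes, acting through the receptor Kdr, keeps such capillaries fenestrated. Notch receptors on endothelial cells are activated by ligands on neighbouring cells, restrain VEGF-driven sprouting and help to set arterial identity. Jag1 and Jag2 are 2 of these ligands, and Dll4 is the main ligand of sprouting endothelium.

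The EC4 cells carried the transcripts of fenestrated endothelium. Igfbp3, which encodes an insulin-like growth factor binding protein, was at 5019 CPM (counts per 1000000, here out of all UMIs of the pooled cells of a label), and Plvap was at 3739 CPM. Cyp26b1, which encodes an enzyme that breaks down retinoic acid, was at 463 CPM, Sema7a, a membrane-bound semaphorin, at 478 CPM, and Inhbb, a subunit of activin B and inhibin B, at 214 CPM. These 5 genes were the markers fixed for the label, and they stood among its 6 leading genes by the ratio to the mean of the other labels, with ratios from 9.90 for Inhbb to 12.8 for Igfbp3. The 20 leading genes also held Flt1, Kdr and Robo4, receptors of endothelial cells, Scarb1, a receptor for high density lipoprotein, and Thrsp, a gene that responds to thyroid hormone. Because the label was set on the same cells, these levels describe it and test nothing. Plvap had a UMI in 85.5% of EC4 cells, against 15.4% of fibroblasts (label F) and 2.65% of macrophages (label M), which do not form fenestrae. After each cell was thinned to 500 UMIs these shares were 71.9%, 2.04% and 0.794%.

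The same genes marked the larger label EC1 (1603 cells). In EC1 cells Igfbp3 was at 3855 CPM, Plvap at 3995, Cyp26b1 at 268, Sema7a at 270 and Inhbb at 117. Across 4369 genes the pooled profile of EC4 had a Pearson correlation of 0.948 with EC1, 0.810 with EC2 (409 cells) and 0.726 with EC3 (365 cells), given as a description over genes that share the same libraries. The markers fit the fenestrated endothelial part of the working name, and none of the 5 was present in one of these labels and absent from the other.

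EC4 and EC1 lay apart in depth. EC4 cells held between 500 and 6380 UMIs with a median of 1045.5, the 3rd lowest median of the 16 labels, against 3994 in EC1. Under 1500 UMIs lay 77.2% of EC4 cells and 1.81% of EC1 cells, so depth nearly separates the 2 labels. The median EC4 cell held 665 genes and 9.22% mitochondrial UMIs. After each cell was thinned to 500 UMIs, which every cell had, the median was 364.5 genes in EC4, 384 in EC1, 362 in EC2 and 373 in EC3. Within EC4 the shallowest quartile of cells (500 to 717 UMIs) had a median of 12.1% mitochondrial UMIs, the next 2 had 8.89% and 7.98%, and the deepest quartile (1456 to 6380 UMIs) had 9.12%. Summed pan-endothelial genes rose from the shallowest quartile to the deepest, at 19550, 20218, 20398 and 23050 CPM. The 5 markers were at 9825, 9230, 9585 and 10403 CPM in the same order, so neither they nor the mitochondrial share moved steadily with depth. The quartiles pool the cells of all samples, and the groups differed in mitochondrial share (given below). Depth and group are therefore not separated in these values.

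Shares of marker-positive cells at equal depth were compared within samples, because 442 of the 1046 EC4 cells but 264 of the 1603 EC1 cells come from aN1aN2. With every cell at 500 UMIs, Plvap had a UMI in 67.7% ± 4.51 (SD, n = 3 samples) of EC4 and 86.3% ± 5.19 of EC1 cells in RW, and EC4 was lower in 9 of 9 samples over the 3 groups. Emcn, an endothelial sialomucin, stood at 73.0% ± 2.82 of EC4 and 85.2% ± 3.65 of EC1 cells in RW, and Esm1, a proteoglycan of VEGF-exposed tip cells, at 32.2% ± 4.77 and 44.95% ± 6.82. Both were lower in EC4 in 9 of 9 samples, by 2.81 and 2.40 percentage points in aN1aN2 and by 12.2 and 12.7 points in RW. Igfbp3 stood at 66.4% ± 6.30 and 67.3% ± 4.51 in RW, with EC4 higher in 1 of 3 samples of each group. For the other 3 markers EC4 was higher in 6 of 9 samples each (Cyp26b1, Sema7a and Inhbb), with RW means of 5.59% and 4.84%, 14.4% and 12.8%, and 6.36% and 6.64%. In aN1aN2 Cyp26b1 and Sema7a were higher in EC4 in 3 of 3 samples, by 4.51 and 7.88 percentage points. Before thinning and over all samples Igfbp3 stood at 79.4%, Cyp26b1 at 25.2%, Sema7a at 38.0% and Inhbb at 17.1% of EC4 cells. Tg, the thyroglobulin of thyrocytes, had a UMI in 47.0% of thinned EC4 cells, 28.4% of EC1, 30.3% of F and 42.1% of M cells, so thyrocyte RNA was found in every one of these labels.

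Across all samples Gm42418, a locus that overlaps ribosomal RNA, was at 22654 CPM in EC4 and 6011 CPM in EC1. Its mean log2 ratio of EC4 to EC1 within a sample was 2.00 ± 0.77 (SD over 9 samples), with EC4 higher in 9 of 9. Lars2, which also collects ribosomal RNA reads, was at 820 and 226 CPM, with a log2 ratio of 1.71 ± 0.74. Mitochondrial transcripts leaned the same way: mt-Nd2 was at 10649 CPM in EC4 and 4767 in EC1, with a log2 ratio of 1.17 ± 0.29 and EC4 higher in 9 of 9 samples. Haemoglobin transcripts leaned the other way, with Hba-a2 at 319 and 1339 CPM and a log2 ratio of -2.92 ± 1.85. The share of cells did not follow: Hbb-bs, another haemoglobin transcript, had a UMI in 31.9% of thinned EC4 cells and 13.9% of thinned EC1 cells (52.0% and 60.1% before thinning), and EC4 was higher in 8 of 9 samples.

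**Figure D1:**
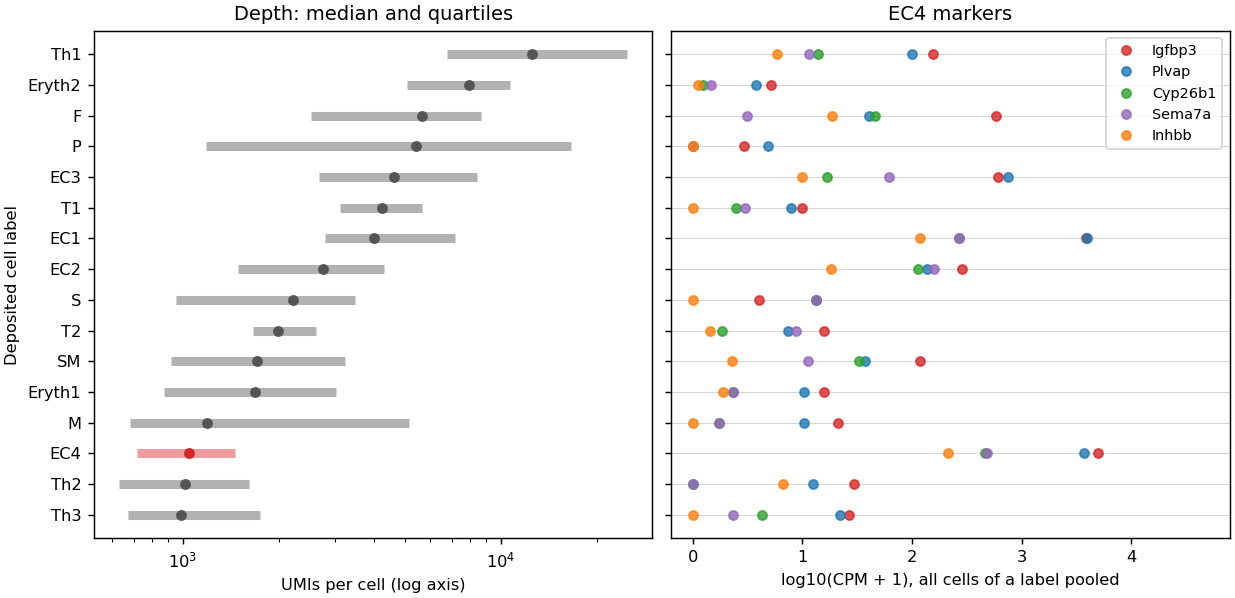
Left, UMIs per cell for each deposited label on a log axis (dot, median; bar, quartiles; EC4 in red); right, pooled levels of the 5 EC4 markers as log10(CPM + 1). EC4 is the 3rd label from the bottom, with a median of 1045.5 UMIs, while its marker levels lie beside those of EC1, whose median is 3994 UMIs.

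Among the marker lists of non-endothelial cells, those of thyrocytes and erythroid cells had the highest medians over the EC4 samples, and other lists reached high sums in single samples. The summed thyrocyte markers ranged from 1856 to 2812 CPM in RW, 908 to 5169 in aJ1aJ2 and 1622 to 1963 in aN1aN2. The summed erythroid markers ranged from 218 to 1065 CPM in RW, 116 to 6761 in aJ1aJ2 and 1667 to 2386 in aN1aN2. Slc4a1, the anion exchanger of red cells, had no UMI in any EC4 cell. C cell markers, of the calcitonin-producing cells, ranged from 99.1 to 156 CPM in RW, 116 to 185 in aJ1aJ2 and 303 to 530 in aN1aN2, with 2 of 6 at 0. Macrophage markers ranged from 85.8 to 617 CPM in RW, 19.3 to 79.1 in aJ1aJ2 and 6.57 to 34.7 in aN1aN2. Parathyroid markers ranged from 24.8 to 327 CPM in RW and from 58.0 to 268 in aJ1aJ2, and reached 3744 CPM in aN1aN2 2. Schwann cell markers were at 663 CPM in RW 3 and at or below 86.7 CPM in the other samples. Neutrophil and T cell and NK cell markers stayed at or below 14.4 CPM in each sample. In all, 32 EC4 cells (of 1046) held at least 2 UMIs of defining genes of another class, and 4 EC4 barcodes also occurred in another library. The part of such RNA in the results below was not tested, beyond the counts without those 32 cells given in the closing section.

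Receptor blockade came with a larger EC4 share. EC4 held 96, 63 and 109 cells in RW 1 to 3, 43, 139 and 154 in aJ1aJ2 1, 3 and 4, and 178, 151 and 113 in aN1aN2 1 to 3, an order of samples used for all values below. As a share of all cells this was 7.69%, 4.78% and 10.4% in RW, 7.38%, 7.70% and 9.85% in aJ1aJ2, and 17.0%, 17.1% and 16.4% in aN1aN2. The aN1aN2 samples all lay above the other 6, while RW and aJ1aJ2 overlapped. The mean was 16.8% ± 0.338 (SD, n = 3) in aN1aN2 and 7.62% ± 2.79 in RW, a ratio of 2.21 with an exact two-sided permutation p of 0.1, the smallest that 3 against 3 samples can give. In aJ1aJ2 it was 8.31% ± 1.35 (exact permutation p = 0.9 against RW). Within series A the aJ1aJ2 sample was 3.00 percentage points below the RW sample, and within series B the aJ1aJ2 mean was 2.54 points above it, so no direction held for ligand blockade.

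Among the 4 endothelial labels EC4 made up 25.1%, 20.5% and 24.0% in RW, 26.1%, 24.6% and 23.3% in aJ1aJ2, and 49.0%, 51.9% and 47.9% in aN1aN2. The aN1aN2 mean of 49.6% ± 2.06 (n = 3) compared with 23.2% ± 2.44 in RW (exact permutation p = 0.1) and 24.7% ± 1.36 in aJ1aJ2. EC1 moved the other way in aN1aN2. Its share of all cells was 18.8% ± 7.45 in RW, 16.9% ± 2.58 in aJ1aJ2 and 10.1% ± 1.69 in aN1aN2 (exact permutation p = 0.1 for aN1aN2 against RW). EC1 and EC4 together made up 26.5% ± 10.0 of cells in RW, 25.2% ± 3.93 in aJ1aJ2 and 26.9% ± 1.54 in aN1aN2 (exact permutation p = 1 for aN1aN2 against RW), so the joint share differed by less than the spread between replicates.

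Depth changed beside these shares. The median EC1 cell held 4837 ± 146 UMIs (SD over 3 sample medians) in RW, 3714 ± 315 in aJ1aJ2 and 2908 ± 548 in aN1aN2. The difference was not limited to this label. Sample medians of the thyrocyte label Th1 were 12535 to 22558 UMIs in RW and 5737 to 7558 in aN1aN2, those of fibroblasts 5561 to 10026 and 2295 to 3864, and those of all cells 3202 to 4149 and 2098 to 2237. EC1 cells under 1500 UMIs were 0.821% in RW and 7.96% in aN1aN2. Since EC4 and EC1 are nearly separated by depth, more EC4 cells and fewer UMIs per fenestrated cell cannot be told apart from these counts. EC4's own median depth was 1014 ± 140 UMIs in RW, 1164 ± 57.9 in aJ1aJ2 and 1003 ± 56.8 in aN1aN2 (exact permutation p = 0.2 and 1 against RW), and its median gene number was 602 ± 56.4, 670 ± 40.8 and 693 ± 29.1 (p = 0.2 and 0.1, exact). The mitochondrial share of EC4 was 11.7% ± 2.32 in RW, 14.3% ± 2.12 in aJ1aJ2 and 5.45% ± 0.694 in aN1aN2, with all aN1aN2 samples below the other 6 (exact permutation p = 0.1 against each group). It was also lower in EC1 of aN1aN2 (4.13% against 5.44% in RW).

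**Figure D2:**
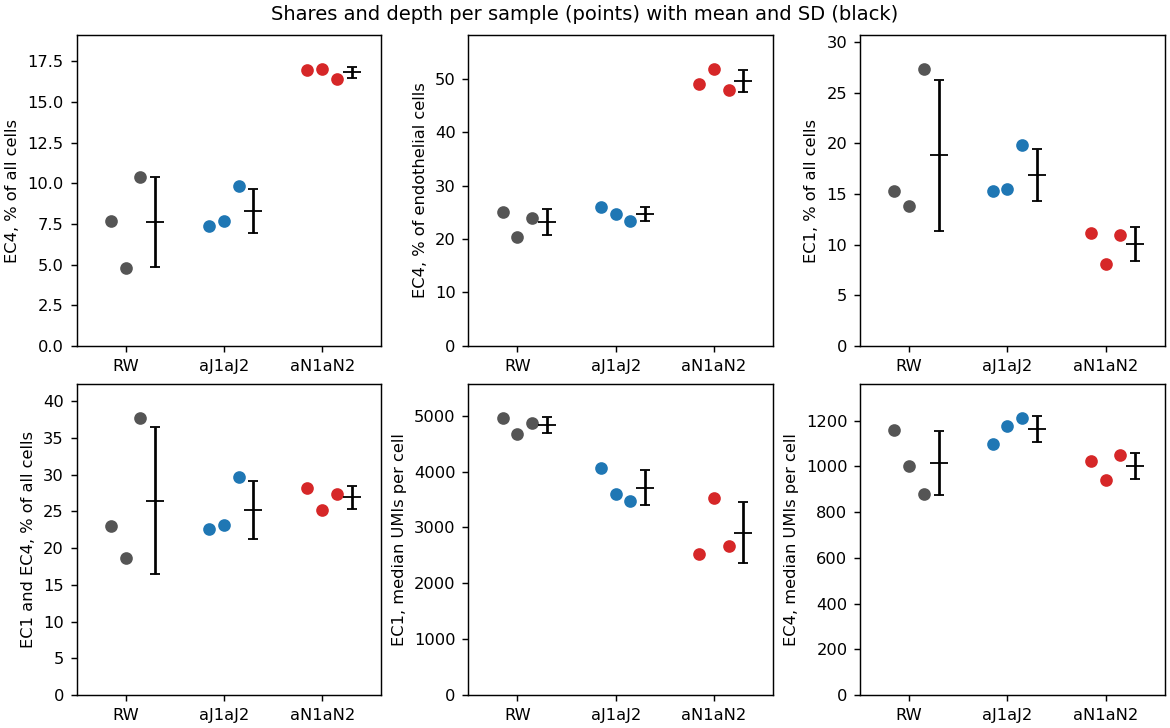
Shares of cells and median UMIs per cell (6 panels, linear axes from 0), where each point is 1 sample and the black bars give the mean and SD of 3 samples. The aN1aN2 samples lie above all others in the EC4 share of all cells (16.4% to 17.1%) and of endothelial cells (47.9% to 51.9%), while EC1 and EC4 together overlap between the groups.

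Gene responses were measured on UMI counts summed over the EC4 cells of each sample, which held 51753 UMIs in aJ1aJ2 1 to 205071 in aJ1aJ2 4. From here on CPM of single genes in EC4 are relative to the UMIs of the 3101 genes with enough counts to test, scaled by TMM. Those in EC1 are relative to the 9369 genes tested in EC1, scaled in the same way, so the 2 labels have unlike bases. Sums of marker lists stay relative to all UMIs. Changes are log2 fold changes of edgeR's quasi-likelihood fit with their standard errors (SE). Adjusted p-values are Benjamini-Hochberg values over these 3101 genes, and a gene is called to have risen or fallen at a value under 0.05. The p-values measure the spread between pools.

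The 5 markers themselves responded unequally. Cyp26b1 was at 115, 119 and 414 CPM in RW, 451, 402 and 380 in aJ1aJ2, and 946, 1124 and 628 in aN1aN2. It was highest in the aN1aN2 samples, and RW 3 lay far above the other RW samples. Its change was 2.01 (SE 0.31, adjusted p = 1.81e-05) under receptor blockade and 0.84 (adjusted p = 0.327) under ligand blockade. In cells thinned to equal depth, Cyp26b1 had a UMI in 3.17% to 7.34% of EC4 cells in RW and 11.5% to 16.3% in aJ1aJ2. In EC1 cells the sample shares were 2.62% to 6.94% in RW and 13.5% to 16.5% in aJ1aJ2, so the groups overlapped in neither label. Without RW 3, 1 of the 5 markers and 1 gene of the retinoic acid list, which holds Cyp26b1, were called higher under ligand blockade. With EC1 and EC4 cells pooled 1 of each was higher and 1 marker was lower. Sema7a was at 406, 459 and 320 CPM in RW, 427, 496 and 436 in aJ1aJ2, and 745, 805 and 904 in aN1aN2, and it rose by 1.06 (SE 0.20, adjusted p = 0.00029) under receptor blockade. Plvap, at 4271 to 4595 CPM in RW, 3650 to 4840 in aJ1aJ2 and 4934 to 5248 in aN1aN2, was not called in either blockade (log2 changes -0.12 and 0.21). Igfbp3 lay between 6787 and 8493 CPM in RW, between 3625 and 9347 in aJ1aJ2 and between 5223 and 7274 in aN1aN2 (aN1aN2 against RW: log2 change -0.32, adjusted p = 0.348), and its groups overlapped. Inhbb was at 168, 237 and 320 CPM in RW, 190, 60.3 and 177 in aJ1aJ2, and 350, 425 and 362 in aN1aN2. Its change against RW passed the test in neither blockade (-0.88, adjusted p = 0.291 and 0.65, adjusted p = 0.0992), but aN1aN2 was above aJ1aJ2 by 1.53 (adjusted p = 0.00048).

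Ligand blockade changed few genes. In aJ1aJ2 against RW, 28 of 3101 genes (0.903%) were called, 16 higher (0.516%) and 12 lower (0.387%), and 315 had an unadjusted p under 0.05. The aJ1aJ2 and RW samples did not overlap in 13.8% of all tested genes. DESeq2 gave an adjusted p for 757 genes and called 11, of which 45.5% were higher, against 57.1% in the edgeR calls and 39.5% with no filter on low counts. The count rested on single samples: leaving out aJ1aJ2 3 gave 2 calls, RW 1 gave 10, aJ1aJ2 4 gave 12 and aJ1aJ2 1 gave 65. Of the 20 genes named by rule, Dbp was the only one whose call held whichever sample was left out. With 43 EC4 cells, aJ1aJ2 1 is the thinnest sample.

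Circadian clock genes with an evening peak were among those that rose under ligand blockade. Dbp, a clock-controlled transcription factor, was at 44.1, 0 and 65.9 CPM in RW, 261, 302 and 335 in aJ1aJ2, and 22.2, 30.4 and 66.6 in aN1aN2. The aJ1aJ2 samples lay above the other 6, a change of 2.86 against RW (SE 0.41, adjusted p = 0.000514) and the smallest adjusted p of the named rises. Nr1d1, a nuclear receptor that represses clock genes, was at 61.8, 14.8 and 94.1 CPM in RW, 285, 288 and 215 in aJ1aJ2, and 55.6, 38.0 and 105 in aN1aN2, and rose by 2.02 (SE 0.38, adjusted p = 0.00763). Tef, a relative of Dbp, was at 26.5, 0 and 37.7 CPM in RW, 47.4, 214 and 139 in aJ1aJ2, and 50.1, 91.1 and 76.2 in aN1aN2, and rose by 2.63 (SE 0.56, adjusted p = 0.0175). These were 3 of the 5 tested members of an 11-gene evening list, whose other 2 were not called, against 0.516% of all genes called higher. The list's median change was 2.02, against 0.00279 over all tested genes. DESeq2 gave none of the 5 an adjusted p in this comparison, and its unadjusted p was 4.45e-07 for Dbp, 6.68e-05 for Nr1d1 and 0.000479 for Tef. Without aJ1aJ2 3 the adjusted p was 0.096 for Nr1d1 and 0.244 for Tef. Tef was also lost without RW 1 (0.0877) and without aJ1aJ2 4 (0.0563). The time of day of the dissections is not given in the sources used here.

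Ccn2, Xdh and Rsad2 rose under both blockades. Ccn2, a matricellular protein, was at 35.3, 0 and 0 CPM in RW, 119, 268 and 56.9 in aJ1aJ2, and 289, 395 and 362 in aN1aN2. It rose by 3.38 (SE 0.72, adjusted p = 0.0175) and by 4.53 (SE 0.60, adjusted p = 2.35e-06), from only 4 UMIs in RW, and the ligand blockade call was lost without aJ1aJ2 3 (0.343) and without RW 3 (0.0747). Xdh, the xanthine dehydrogenase that makes uric acid, was at 88.3, 178 and 94.1 CPM in RW, 261, 456 and 297 in aJ1aJ2, and 751, 767 and 752 in aN1aN2. Its 3 groups did not overlap, and it rose by 1.64 (SE 0.30, adjusted p = 0.00763) under ligand blockade and 2.73 (SE 0.27, adjusted p = 1.65e-08) under receptor blockade. Without aJ1aJ2 3 its adjusted p under ligand blockade was 0.096, and without RW 1 it was 0.0659. Rsad2, the interferon-induced antiviral enzyme viperin, was at 309, 208 and 377 CPM in RW, 641, 965 and 911 in aJ1aJ2, and 940, 357 and 600 in aN1aN2 (log2 changes 1.5, adjusted p = 0.00763, and 1.07, adjusted p = 0.00735). Rsad2 lost its call under ligand blockade without aJ1aJ2 3 (0.096) and under receptor blockade without aN1aN2 1 (0.125). Both comparisons use the same RW samples. Gm26870, one of the nuclear and ribosomal RNA-overlapping transcripts, was at 142, 275 and 690 CPM in aJ1aJ2 against 79.4, 44.5 and 0 in RW (log2 change 3.31, adjusted p = 0.00134, and 0.0616 without aJ1aJ2 4). In aN1aN2 it was at 11.1, 15.2 and 9.52 CPM, below aJ1aJ2 by 5.02 (adjusted p = 5.55e-07) and not called against RW (-1.71, adjusted p = 0.261).

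The falls under ligand blockade included a pair of related signalling inhibitors. Spred2, an inhibitor of the Ras to MAP kinase pathway, was at 150, 163 and 216 CPM in RW, 47.4, 40.2 and 50.6 in aJ1aJ2, and 94.6, 91.1 and 105 in aN1aN2, in 3 groups that did not overlap. It fell by 1.93 on the log2 scale (SE 0.37, adjusted p = 0.00968), and its relative Spred1 by 1.10 (SE 0.26, adjusted p = 0.0422). Col4a1, a chain of basement membrane collagen, was at 3310, 2683 and 2447 CPM in RW, 1969, 1112 and 1442 in aJ1aJ2, and 1151, 1261 and 1228 in aN1aN2. It fell by 0.95 (SE 0.19, adjusted p = 0.0118) and by 1.22 (SE 0.19, adjusted p = 2.09e-05). Col4a1 was the only one of 13 tested basement membrane genes called under ligand blockade, where 0.387% of all genes were lower. Vim, an intermediate filament protein, was at 291, 415 and 367 CPM in RW, 119, 101 and 183 in aJ1aJ2, and 128, 137 and 76.2 in aN1aN2, and fell by 1.33 (adjusted p = 0.0175) and 1.58 (adjusted p = 0.000103). Tsc22d1 was lower in aJ1aJ2 than in both other groups, at 783, 697 and 620 CPM against 1350, 1645 and 1308 in RW and 1296, 1511 and 2218 in aN1aN2 (log2 change -1.05, adjusted p = 0.0104). Ednrb, the endothelin B receptor, fell by 1.01 (adjusted p = 0.0175). Without aJ1aJ2 3 the adjusted p was 0.096 for Spred2 and Tsc22d1, 0.183 for Vim and 0.163 for Col4a1. Spred1 and Ednrb were each lost without RW 1, aJ1aJ2 3 or aJ1aJ2 4, and Spred1 also without RW 3 or aN1aN2 3. Col4a1 was also lost without RW 1 (0.117) and without aJ1aJ2 4 (0.0637), and Tsc22d1 without aJ1aJ2 4 (0.0876). None of the tested genes of the lists of Notch targets, Notch receptors and ligands, VEGF and angiopoietin, fenestration and capillary lipid uptake was called in aJ1aJ2 against RW by edgeR's fit of EC4 in all samples, or by DESeq2 where it gave an adjusted p. Unadjusted edgeR p-values under 0.05 were found for 6 of them (Sox17, Ccnd1, Cdkn1a, Nrp1, Aplnr and Cd36).

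**Figure D3:**
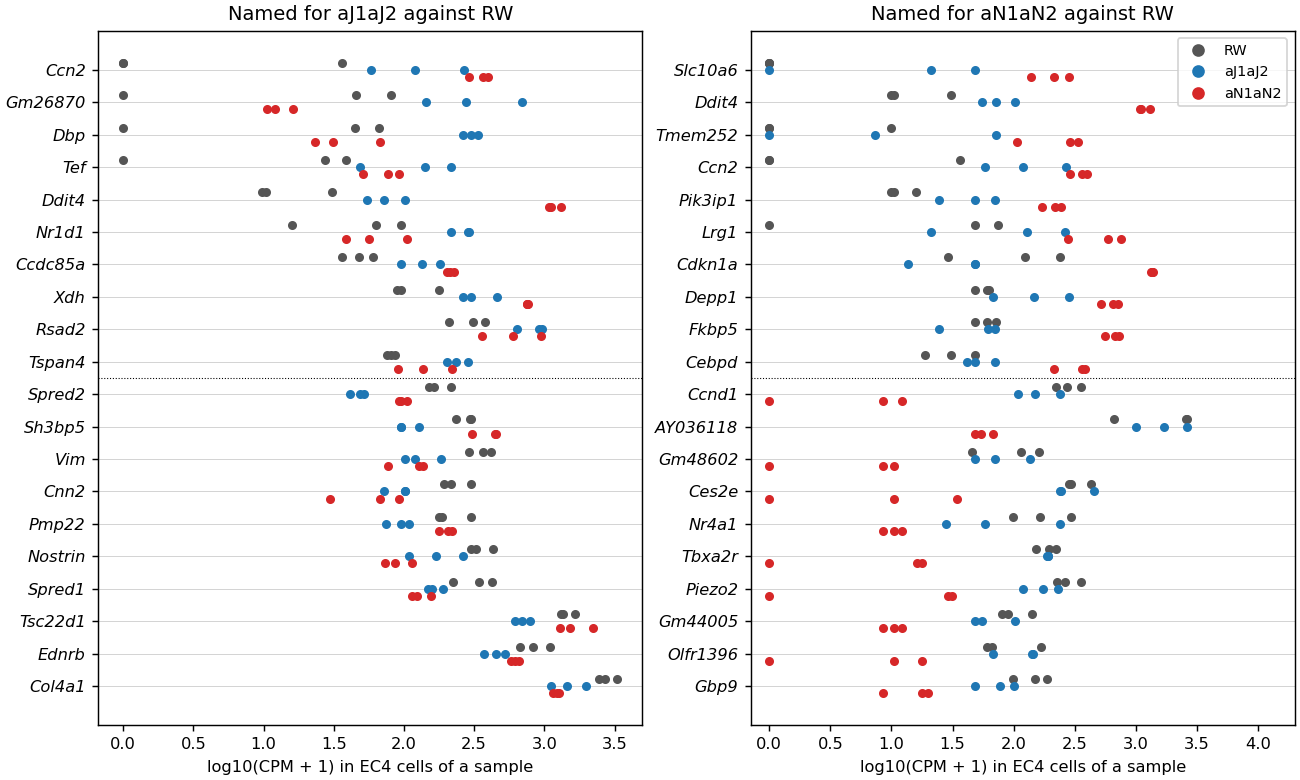
EC4 levels per sample, as log10(CPM + 1), of the 20 genes with the largest called rises and falls whose samples do not overlap, for aJ1aJ2 against RW (left) and aN1aN2 against RW (right). Rises stand above the dotted line and falls below it. Dbp stands out on the left with aJ1aJ2 samples at 261 to 335 CPM above the other 6, and Ddit4 on the right with aN1aN2 samples at 1085 to 1304 CPM.

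Far more genes were called under receptor blockade, which cannot be told apart from series C. In aN1aN2 against RW 654 of 3101 genes (21.1%) were called, 346 higher (11.2%) and 308 lower (9.93%). The samples of these 2 groups did not overlap in 36.1% of tested genes. The comparison with aJ1aJ2 called 533 genes (17.2%), with 282 higher (9.09%) and 251 lower (8.09%), and its samples did not overlap in 32.5% of genes. The median change over all tested genes was -0.0174 and -0.0136, which the TMM scaling holds near 0, so changes are relative to the bulk of the genes. All 20 genes named by rule in each of these comparisons kept their call whichever sample was left out. DESeq2 called 410 and 318 genes.

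The largest rises included inhibitors of growth and of the cell cycle. Ddit4, an inhibitor of the growth kinase mTORC1, was at 8.83, 29.6 and 9.41 CPM in RW, 71.2, 53.6 and 101 in aJ1aJ2, and 1085, 1109 and 1304 in aN1aN2. It rose by 6.27 (SE 0.36, adjusted p = 8.05e-13), and by 2.37 under ligand blockade (SE 0.57, adjusted p = 0.0441), a call that was lost in 5 of the fits that left out a sample. Cdkn1a, the cell cycle inhibitor p21, was at 124, 237 and 28.2 CPM in RW, 47.4, 46.9 and 12.7 in aJ1aJ2, and 1390, 1359 and 1323 in aN1aN2, a rise of 3.52 (SE 0.32, adjusted p = 4.38e-09). Ccnd1, the cyclin that drives entry into the cell cycle, went the other way, at 353, 222 and 273 CPM in RW, 237, 147 and 108 in aJ1aJ2, and 11.1, 7.59 and 0 in aN1aN2. This was 84 UMIs in RW against 3 in aN1aN2, a ratio of 40.6 with a 95% counting interval of 13.4 to 201.0, which covers counting error only. Pik3ip1, an inhibitor of PI3 kinase, had 3 UMIs in RW and 89 in aN1aN2 (ratio 20.4, interval 6.77 to 101.0), and Tmem252 had 1 and 92 (ratio 63.4, interval 11.1 to 2531). Slc10a6, a transporter of sulfated steroids, had 0 UMIs in the RW samples and 83 in aN1aN2, at least 19.1-fold higher if RW is set to the limit of 3 counts that a group total of 0 allows. Depp1 lay between 47.1 and 61.8 CPM in RW and between 517 and 714 in aN1aN2 (log2 change 3.45, adjusted p = 2.16e-08). Lrg1, a secreted glycoprotein of activated endothelium, was at 0, 74.1 and 47.1 CPM in RW, 261, 20.1 and 127 in aJ1aJ2, and 278, 592 and 762 in aN1aN2, a rise of 3.86 (adjusted p = 1.02e-05), and the transcription factor gene Cebpd rose by 3.26 (adjusted p = 8.71e-07).

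The largest falls included a receptor and an ion channel of the cell surface. Tbxa2r, the thromboxane receptor, was at 194, 222 and 151 CPM in RW, 190, 188 and 190 in aJ1aJ2, and 16.7, 15.2 and 0 in aN1aN2, a fall of 3.84 (adjusted p = 8.58e-07). Piezo2, a mechanically gated ion channel, was at 265, 356 and 226 CPM in RW, 119, 174 and 228 in aJ1aJ2, and 27.8, 30.4 and 0 in aN1aN2, a fall of 3.61 (adjusted p = 4.47e-07). The carboxylesterase gene Ces2e fell by 4.27 (adjusted p = 7.01e-08), the immediate early nuclear receptor Nr4a1 by 4.12 (7.2e-05), and the interferon-induced GTPase Gbp9 by 3.22 (5.36e-05). Gm44005 and Olfr1396 fell by 3.31 and 3.29, each from 30 UMIs in RW to 4. Gm48602 had 33 UMIs in RW and 2 in aN1aN2, a ratio of 23.9 with a counting interval of 6.12 to 206.0.

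Most tested genes known to be induced by glucocorticoids rose. Of 16 listed genes 11 were tested, and 8 rose, none fell and 3 were not called, against 11.2% of all genes higher. The list's median change was 1.19, against -0.0174 over all tested genes. Fkbp5, a chaperone partner of the glucocorticoid receptor, was at 70.6, 59.3 and 47.1 CPM in RW, 23.7, 60.3 and 69.6 in aJ1aJ2, and 562, 721 and 676 in aN1aN2. It rose by 3.43 (SE 0.28, adjusted p = 1.03e-09), and its aJ1aJ2 and RW samples overlapped. Tsc22d3, which encodes the leucine zipper protein GILZ, was at 609, 845 and 377 CPM in RW, 854, 348 and 411 in aJ1aJ2, and 1413, 1109 and 1609 in aN1aN2, a rise of 1.21 (adjusted p = 0.00105). The other 6 were Ddit4 and Cdkn1a, given above, and Per1 (1.42), Klf9 (1.19), Sgk1 (1.01) and Dusp1 (0.78). Per1 was lost without aN1aN2 1 (adjusted p = 0.0505), and Dusp1 without RW 1 (0.107), aN1aN2 1 or aN1aN2 2 (both 0.0638). Between 6 and 9 of the 11 were called higher when a sample was left out, with 6 without aN1aN2 1. Under ligand blockade 1 of the 11 was called, Ddit4, against 0.516% of all genes higher. Immediate early and dissociation genes, which respond to handling of tissue, moved in the same comparison. Of 20 listed genes 13 were tested, and 4 rose (Ier3, Jund, Klf2 and Dusp1) and 1 fell (Nr4a1), against 11.2% and 9.93% of all genes. Against aJ1aJ2 5 were higher and 1 lower, where 9.09% of all genes were higher and 8.09% lower. Dusp1 stands in both lists. Their part in the glucocorticoid list's count was not tested.

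Kdr and other receptors of the VEGF list fell under receptor blockade. Kdr, the main VEGF receptor, was at 3460, 3009 and 3473 CPM in RW, 3084, 2835 and 3144 in aJ1aJ2, and 834, 653 and 819 in aN1aN2. It fell by 2.11 (SE 0.17, adjusted p = 8.36e-10), with the aN1aN2 samples below the other 6. Nrp1, a VEGF and semaphorin co-receptor, was at 2736, 2579 and 2946 CPM in RW, 3630, 3538 and 3239 in aJ1aJ2, and 706, 714 and 600 in aN1aN2, a fall of 2.03 (SE 0.17, adjusted p = 1.28e-09). Aplnr, the apelin receptor, fell by 2.53 (adjusted p = 1.1e-06), and Calcrl and Nrp2 by 1.03 and 0.98. Ramp2, the partner of Calcrl in the adrenomedullin receptor, rose, from 768, 682 and 659 CPM in RW to 1863, 2377 and 1942 in aN1aN2 (log2 change 1.55, adjusted p = 5.17e-07). Of 18 listed VEGF and angiopoietin genes, 10 were tested, and 5 fell, 1 rose and 4 were not called, against 9.93% of all genes lower. Flt1, a second VEGF receptor, lay between 5306 and 6156 CPM in RW and between 4427 and 5340 in aN1aN2 and was not called (log2 change -0.19, adjusted p = 0.439), and neither was the angiopoietin receptor Tek (0.10).

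Some genes of VEGF-exposed tip cells and of the vessel's matrix were lower as well. Esm1 was at 1112, 1808 and 1977 CPM in RW, 2610, 1548 and 2151 in aJ1aJ2, and 217, 311 and 114 in aN1aN2, a fall of 2.89 (SE 0.27, adjusted p = 1.09e-08). Of 6 tested tip cell genes 3 fell (Esm1, Lamb1 and Mcam) and 1 rose, Plaur, the urokinase receptor (1.55, adjusted p = 0.0124, but 0.0744 without RW 3 and 0.0992 without aN1aN2 1), against 9.93% of all genes lower and 11.2% higher. Of 13 tested basement membrane genes 7 fell and 1 rose, against the same shares over all genes. Col15a1, a collagen at the outer face of the basement membrane, was at 459, 326 and 602 CPM in RW, 688, 315 and 525 in aJ1aJ2, and 33.4, 83.5 and 57.1 in aN1aN2, a fall of 3.06 (SE 0.35, adjusted p = 2.53e-07). Hspg2, the proteoglycan perlecan, was at 1800, 1423 and 1675 CPM in RW and 684, 608 and 743 in aN1aN2 (log2 change -1.28, adjusted p = 2.17e-05). Lamb1 fell by 2.04, Sparc by 1.07, Nid1 by 1.03 and Col4a2 by 0.61, while the laminin chain Lama5 rose by 1.27 (adjusted p = 0.00268). Col4a2 lost its call without RW 1, RW 2, aN1aN2 1 or aN1aN2 3 (adjusted p of 0.104 to 0.18). The list's median change was -0.91.

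Some genes of the fenestration and caveola list fell, but not the diaphragm gene Plvap. Of 13 fenestration and caveola genes 12 were tested, and 4 fell, none rose and 8 were not called, against 9.93% of all genes lower and 11.2% higher. The 4 were Kdr and Nrp1, which stand in this list as VEGF inputs, Ehd4, a membrane-shaping ATPase that went from 865, 1008 and 1478 CPM in RW to 311, 311 and 371 in aN1aN2 (log2 change -1.76, adjusted p = 9.17e-07), and Cavin2 (-0.59, adjusted p = 0.024), whose call was lost without RW 1 (0.124), aN1aN2 1 (0.128) or aN1aN2 2 (0.0899). Plvap, the diaphragm protein, and the caveola proteins Cav1 (-0.24) and Cavin1 (-0.15) were not called. The count of members that fell was 3 to 5 when a sample was left out.

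Several capillary lipid uptake genes rose. Cd36, a fatty acid transporter, was at 88.3, 88.9 and 104 CPM in RW, 166, 275 and 171 in aJ1aJ2, and 851, 638 and 990 in aN1aN2. It rose by 3.12 (SE 0.27, adjusted p = 2.79e-09) under receptor blockade, while its change of 1.17 under ligand blockade did not pass the test (adjusted p = 0.095) although the samples did not overlap. Gpihbp1, which carries lipoprotein lipase across capillaries, was at 1650, 1497 and 979 CPM in RW, 1684, 1313 and 1158 in aJ1aJ2, and 4438, 4382 and 4827 in aN1aN2, a rise of 1.73 (SE 0.19, adjusted p = 1.15e-07). Rgcc rose by 1.01, the fatty acid binding protein Fabp4 by 0.82 and the carbonic anhydrase Car4 by 0.72. In all 5 of 8 tested members rose and none fell, against 11.2% of all genes higher, with 4 to 6 called when a sample was left out. Fabp4 lost its call without aN1aN2 3 (adjusted p = 0.0872), and Car4 without RW 2 (0.115) or aN1aN2 2 (0.119). Ly6c1, a surface protein of capillary endothelium and one of the interferon-stimulated genes, was at 2268, 2461 and 2259 CPM in RW, 2847, 4014 and 3486 in aJ1aJ2, and 8810, 11172 and 10187 in aN1aN2 (log2 change 2.11, adjusted p = 7.58e-10).

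Notch receptors and ligands were not called, while some Notch targets were. Notch1, a receptor bound by one of the antibodies, was at 397, 578 and 386 CPM in RW, 522, 389 and 525 in aJ1aJ2, and 478, 243 and 381 in aN1aN2, in groups that overlapped (log2 change -0.25, adjusted p = 0.533). None of the 4 tested receptors and ligands (Notch1, Notch4, Jag2 and Dll4) was called in any of the 3 comparisons by edgeR, or by DESeq2 where it gave an adjusted p, with Dll4 alone under an unadjusted p of 0.05 in both comparisons with aN1aN2, and Notch2, Notch3, Jag1, Dll1 and Dlk1 had too few counts to test. Antibodies block proteins, so these transcripts do not check the blockade. Of 17 listed Notch targets 6 were tested, and in aN1aN2 against RW 2 fell (Ccnd1 and Efnb2) and 1 rose (Cdkn1a), against 21.1% of all genes called. Against aJ1aJ2 4 of the 6 were lower and 1 higher, against 17.2% of all genes called, with 2 to 4 lower when a sample was left out and 3 by DESeq2. Efnb2, the arterial ligand ephrin-B2, was at 300, 459 and 442 CPM in RW, 451, 369 and 443 in aJ1aJ2, and 128, 144 and 171 in aN1aN2, a fall of 1.44 (SE 0.25, adjusted p = 9.41e-05). Hes1, a canonical Notch target, was at 194, 415 and 264 CPM in RW, 261, 409 and 316 in aJ1aJ2, and 145, 197 and 162 in aN1aN2. It was below aJ1aJ2 by 1.04 (adjusted p = 0.00511, and 0.0687 without aJ1aJ2 3) and did not pass against RW (-0.73, adjusted p = 0.0639). Sox17, an arterial transcription factor, was likewise called lower only against aJ1aJ2 (-1.23, adjusted p = 0.041), with -0.27 against RW. That call was lost without aJ1aJ2 3 (0.369), without aJ1aJ2 4 (0.104) and without each aN1aN2 sample (0.0893 to 0.105). Among genes that modify or cleave the receptors, the glycosyltransferases Mfng and Lfng rose by 1.52 (adjusted p = 0.000614) and 1.35 (adjusted p = 0.014), and the protease Adam10 fell by 0.80 (adjusted p = 0.0316). This was 2 higher and 1 lower of 9 tested genes, against 11.2% and 9.93% of all genes. Lfng lost its call without RW 1 (0.146). Adam10 lost it without RW 1 (0.0775), without RW 3 (0.221) and without each aN1aN2 sample (0.0718 to 0.0899), and DESeq2 called none of the 9 tested genes of this list lower.

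Activin, BMP and TGF beta genes, the list that holds the marker Inhbb, mostly fell where they were called. Of 29 listed genes 13 were tested, and 5 fell and 1 rose in aN1aN2 against RW, against 9.93% of all genes lower and 11.2% higher. Smad7, an inhibitor of TGF beta signalling that the pathway induces, was at 177, 222 and 216 CPM in RW, 166, 208 and 259 in aJ1aJ2, and 55.6, 30.4 and 66.6 in aN1aN2, a fall of 1.98 (SE 0.34, adjusted p = 9.11e-05). The receptors Bmpr2, Eng and Acvrl1 fell by 0.95, 0.88 and 0.75, and the target Id1 by 0.94. Acvrl1 lost its call without RW 1 (0.0733). Tgfbr3, the co-receptor betaglycan, rose from 88.3, 148 and 132 CPM in RW to 473, 516 and 438 in aN1aN2 (log2 change 1.99, SE 0.25, adjusted p = 1.27e-06).

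Semaphorin genes, the family of the marker Sema7a, split. Sema6b was at 44.1, 44.5 and 18.8 CPM in RW, 142, 60.3 and 38.0 in aJ1aJ2, and 267, 311 and 286 in aN1aN2, a rise of 3.00 (adjusted p = 1.45e-06). Sema6d was at 327, 267 and 273 CPM in RW, 237, 168 and 177 in aJ1aJ2, and 55.6, 15.2 and 47.6 in aN1aN2, a fall of 2.81 (adjusted p = 5.97e-07). With Sema7a up and the receptors Nrp1 and Nrp2 down, 2 of 12 tested members rose and 3 fell, against 11.2% and 9.93% of all genes. In the retinoic acid list, which holds Cyp26b1, no other of the 4 tested genes was called.

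Transcription factors of the endothelium were lower where called, apart from Klf2. Ets1 was at 750, 504 and 753 CPM in RW, 332, 409 and 595 in aJ1aJ2, and 222, 205 and 181 in aN1aN2, a fall of 1.72 (adjusted p = 3.38e-06). Mef2c was at 962, 741 and 631 CPM in RW, 664, 1092 and 886 in aJ1aJ2, and 306, 296 and 248 in aN1aN2, a fall of 1.45 (adjusted p = 2.21e-05). Meox1, Lmo2 and Foxf1 fell by 1.64, 1.45 and 1.28, where Lmo2 was lost without RW 3 (0.0708) and Foxf1 without RW 1 (0.0971), aN1aN2 2 (0.0537) or aN1aN2 3 (0.0595). Klf2, a flow-induced factor that also belongs to the immediate early list, was at 1006, 1082 and 744 CPM in RW, 996, 771 and 917 in aJ1aJ2, and 2019, 1830 and 1504 in aN1aN2, a rise of 0.93 (adjusted p = 0.000521). In all 5 of 17 tested factors fell and 1 rose, against 9.93% and 11.2% of all genes. The arterial chemokine Cxcl12 fell by 1.77 (adjusted p = 0.000776).

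More interferon-stimulated genes fell than rose in aN1aN2. Of 25 listed genes 17 were tested, and 9 fell and 3 rose (Ly6c1, Rsad2 and Ly6a), against 9.93% of all genes lower and 11.2% higher. DESeq2 called 5 lower and 2 higher. In cells of 700 to 1500 UMIs, where 9 members were tested, 1 was lower and 2 were higher. Ly6a was lost without RW 1 (adjusted p = 0.209), RW 2 (0.105), aN1aN2 1 (0.0734) or aN1aN2 2 (0.143). Ifi44 was at 150, 193 and 104 CPM in RW, 71.2, 60.3 and 44.3 in aJ1aJ2, and 38.9, 7.59 and 19.0 in aN1aN2, a fall of 2.55 (adjusted p = 0.000443). Gbp4, an interferon-induced GTPase, fell by 2.45 (adjusted p = 0.00263), with RW samples at 79.4, 267 and 104 CPM and aN1aN2 samples at 33.4, 15.2 and 19.0. The count of members that fell was 4 without RW 2 or without aN1aN2 2, and at most 9. Against aJ1aJ2 3 members were lower and 1 higher, where 8.09% of all genes were lower and 9.09% higher. Only 1 member was lower without aJ1aJ2 3, aN1aN2 2 or aN1aN2 3 and by DESeq2, and none in cells of 700 to 1500 UMIs.

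**Figure D4:**
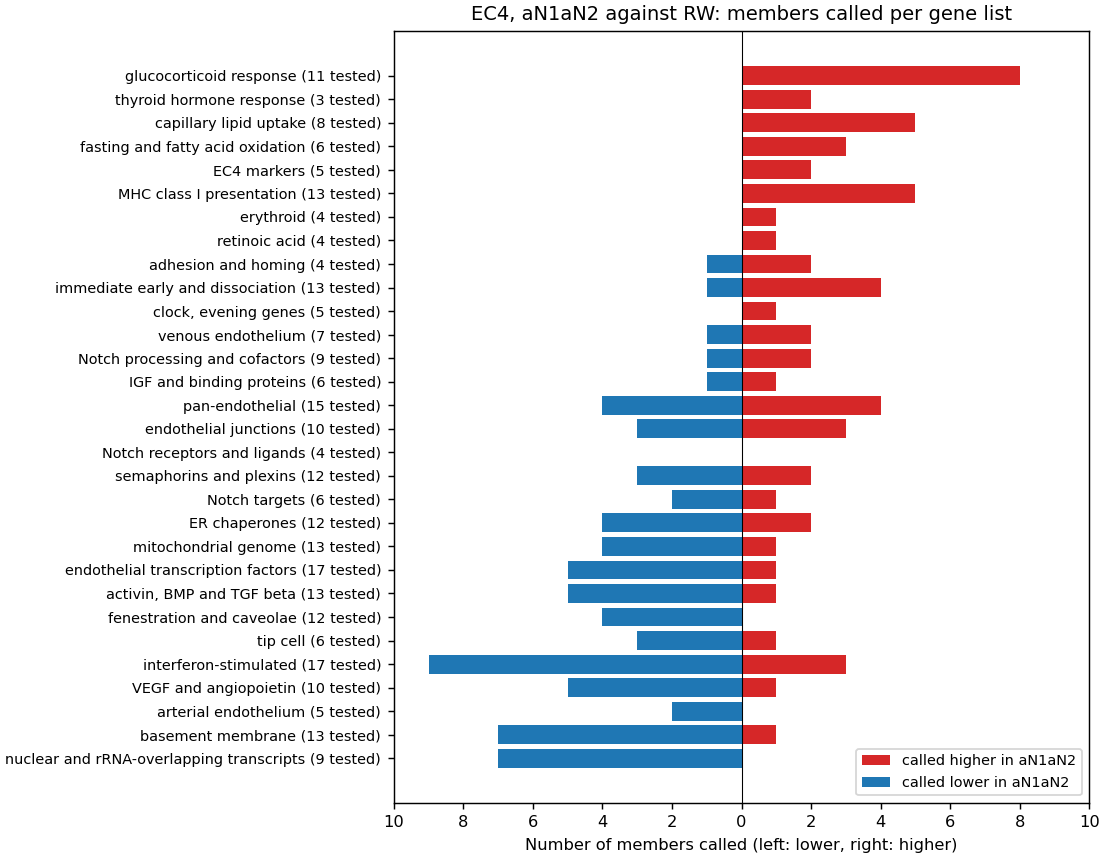
Number of tested members of each gene list called lower (blue, to the left) and higher (red, to the right) in EC4 of aN1aN2 against RW. Glucocorticoid response (8 of 11 higher) and capillary lipid uptake (5 of 8 higher) stand to the right, and basement membrane (7 of 13 lower) and interferon-stimulated genes (9 of 17 lower) to the left.

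Transcripts that overlap ribosomal RNA or stay in the nucleus also fell. Gm42418 was at 39829, 32298 and 43826 CPM in RW, 44317, 41797 and 47306 in aJ1aJ2, and 4722, 3775 and 4541 in aN1aN2, a fall of 3.15 (SE 0.17, adjusted p = 5.03e-13). AY036118 was at 2577, 2609 and 659 CPM in RW, 996, 2647 and 1702 in aJ1aJ2, and 66.7, 53.2 and 47.6 in aN1aN2, a fall of 5.05 (SE 0.45, adjusted p = 4.37e-09). Malat1, a nuclear long non-coding RNA, was at 36475, 23419 and 30799 CPM in RW, 25622, 38855 and 28790 in aJ1aJ2, and 8666, 8187 and 6246 in aN1aN2 (log2 change -1.97, adjusted p = 1.42e-08). Of 9 tested transcripts of this kind 7 fell and none rose in aN1aN2 against RW, against 9.93% of all genes lower. Of the 13 genes of the mitochondrial genome 4 fell and 1 rose, against 9.93% and 11.2% of all genes, and 8 fell against aJ1aJ2, where 8.09% of all genes were lower. The falls against RW were 1 without RW 1 or without aN1aN2 1, and the rise (mt-Co3) was lost without RW 2, RW 3 or aN1aN2 3. Against aJ1aJ2 5 fell without aJ1aJ2 4 or aN1aN2 1. With EC1 and EC4 cells pooled the balance turned, to 7 higher and 1 lower against RW and 4 higher and 4 lower against aJ1aJ2. These transcripts moved with the aN1aN2 samples beside all the gene groups above. Gm42418, Lars2 and the mitochondrial transcripts are also the ones given above as higher in EC4 than in EC1. Their part in the other changes was not tested.

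The direct comparison of the blockades, aN1aN2 against aJ1aJ2, named some further genes. Ucp2, a mitochondrial carrier, was at 379, 415 and 301 CPM in RW, 285, 302 and 342 in aJ1aJ2, and 2425, 2483 and 2609 in aN1aN2, which was 2.99 above aJ1aJ2 (SE 0.19, adjusted p = 1.46e-11). Cdkn1a stood 5.38 above aJ1aJ2 (adjusted p = 8.69e-11), Ddit4 3.90 (1.99e-11) and Fkbp5 3.42 (4.99e-10). Cebpb, a stress-induced transcription factor, was at 53.0, 119 and 37.7 CPM in RW, 94.9, 26.8 and 50.6 in aJ1aJ2, and 256, 319 and 390 in aN1aN2 (2.74 above aJ1aJ2, adjusted p = 3.1e-06). The clock genes went the other way: Dbp was 3.06 lower in aN1aN2 than in aJ1aJ2 (adjusted p = 1.14e-06). Dbp, Nr1d1 and Nr1d2 (lost without aJ1aJ2 4, adjusted p = 0.121) made up 3 of 5 tested evening genes that were lower, against 8.09% of all genes. Sh3bp5 was lower in aJ1aJ2, at 94.9, 127 and 94.9 CPM, than in RW (300, 296 and 235) and in aN1aN2 (451, 440 and 305), with changes of -1.34 for aJ1aJ2 against RW (adjusted p = 0.0175, but 0.124 without RW 1, 0.096 without aJ1aJ2 3 and 0.165 without aJ1aJ2 4) and 1.89 for aN1aN2 against aJ1aJ2 (adjusted p = 5.05e-06).

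The responses of EC4 were set against those of EC1 in the same pools with an interaction test over 5681 genes and the sample as a block. Under receptor blockade 28 genes (0.493%) differed, 15 with a higher (0.264%) and 13 with a lower (0.229%) response in EC4, and under ligand blockade 3 (0.0528%), all higher. The counts moved with single samples. Under receptor blockade 13 genes were called without RW 1, 10 without RW 3, 17 without aN1aN2 1 and 16 without aN1aN2 2. The count was 67 when only cells with at least 1000 UMIs entered. The share with a higher response in EC4, 53.6%, was 67.2% in those cells, 84.8% of 33 with no filter on low counts and 22.2% of 9 with equal cells, so the balance of directions depends on these settings. Among the named differences were haemoglobin transcripts, which red cells make, and ribosomal RNA-overlapping loci, and each is given in the closing section. In a separate fit of EC1 sums 1664 of 9369 genes were called under receptor blockade. Of the 654 genes called in EC4, 510 (78.0%) were called there too, all in the same direction. Under ligand blockade 12 of the 28 EC4 calls (42.9%) were, all in the same direction, with 134 calls in EC1. Side by side, for 5 genes picked after their values were seen, Kdr fell by 2.11 in EC4 and by 2.47 in EC1, Esm1 by 2.89 and 3.14, while Ucp2 rose by 2.79 and 2.95, Fkbp5 by 3.43 and 3.76 and Cd36 by 3.12 and 3.31. These 5 did not pass the interaction test, with adjusted p-values between 0.545 and 0.95. The exceptions among genes given above, beside those of the closing section, were Rsad2, whose response was 1.13 higher in EC4 (adjusted p = 0.00743), Sgk1, whose rise was 0.93 larger in EC4 (adjusted p = 0.0187), Bmpr2, whose fall was 0.83 larger (adjusted p = 0.0387), and Ly6c1, whose rise was 0.63 larger (adjusted p = 0.04). Each of these 4 calls was lost without single samples: Rsad2 without RW 2 or aN1aN2 1, Sgk1 in 4 fits, Bmpr2 in 5 and Ly6c1 in 6. Among mitochondrial transcripts, the responses of mt-Atp6, mt-Co1, mt-Nd1, mt-Rnr1 and mt-Rnr2 also differed from EC1 under receptor blockade. Of these mt-Rnr1 alone kept its call whichever sample was left out. Ddit4 rose by 6.27 in EC4 and 4.25 in EC1, a difference of 2.11 that did not pass (adjusted p = 0.0633).

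**Figure D5:**
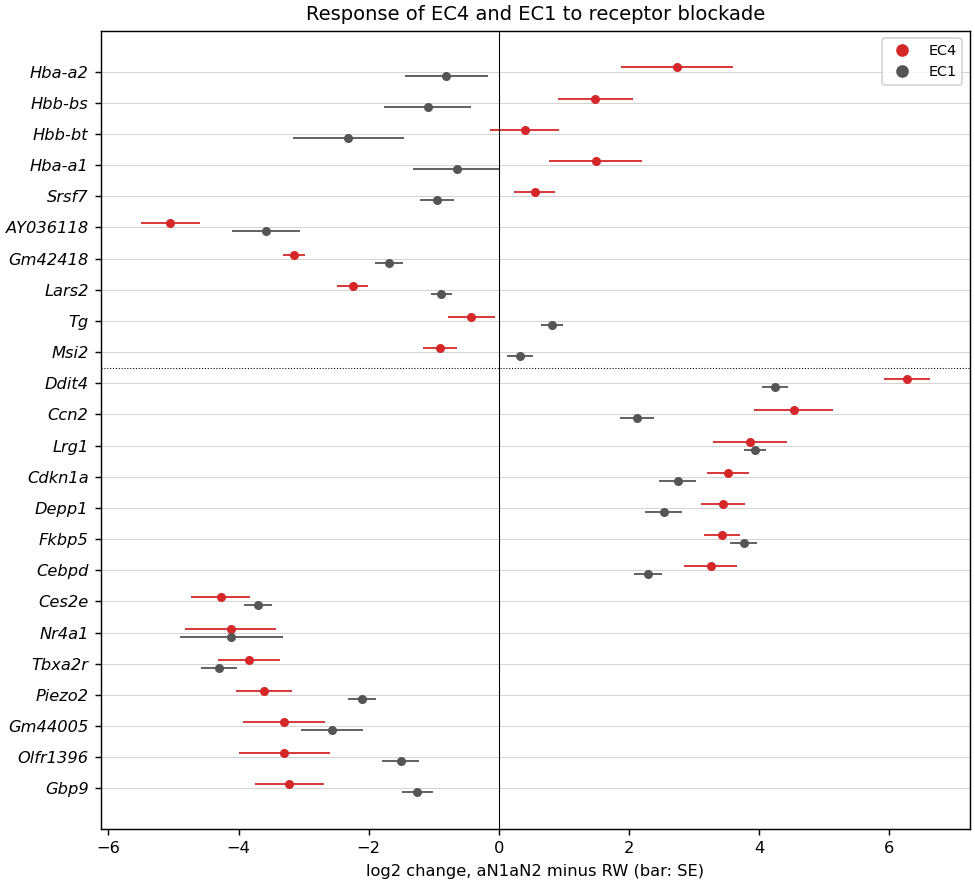
Log2 changes of aN1aN2 minus RW in EC4 (red) and EC1 (grey), with SE as bars, for the 10 genes with the largest differences between the labels (above the dotted line) and for genes named for EC4 that had over 3 UMIs in each group (below it). The haemoglobin transcripts lie above 0 in EC4 and below 0 in EC1, where RW 2 held 21306 CPM of erythroid markers against 4282 and 3937 in the other RW samples, while Fkbp5 lies at 3.43 and 3.76.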

How the data were processed

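Thyroid cells of 9 pools of mice were profiled by droplet-based 3' RNA sequencing, with a stated aim of about 8000 cells per sample. The authors deposited raw UMI counts per gene and cell, whole numbers without normalization, with a cell label for each cell. The submitters' processing notes name Cell Ranger and GRCm38, while the version, the cell calling and the labelling method are not given in the sources used here. An unquoted comma shifted 2619 annotation lines and was repaired. Symbols were matched for 52403 of 52636 gene identifiers, and the 233 others hold 0.0293% of UMIs.

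Counts were summed per sample over EC4 cells (at least 20 cells were required, met by all 9 samples) and tested with edgeR 4.0.16 in R 4.3.3: filterByExpr by group, TMM, and 1 quasi-likelihood fit of all 3 groups, two-sided, Benjamini-Hochberg threshold 0.05. DESeq2 1.42.0 was the other tool. The responses of EC4 and EC1 were compared by an interaction term with the sample as a block, in sums with at least 20 cells of each label. Shares and medians were compared by exact permutation tests over samples with scipy 1.17.1. Scripts were tested on simulated data. Replicate sums differed beyond sampling noise (chi-square per degree of freedom 1.49 to 2.32), so each pool counts as 1 replicate. Intervals are 95%, and they and the floor of 3 counts cover counting error only.

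Named are the 5 markers, the 10 largest called rises and falls per comparison whose samples do not overlap, with at least 10 UMIs in the higher group, called members of the gene lists (in part, with the counts of the lists), the 5 largest differences from EC1 in each direction with at least 10 UMIs in EC4, and the 20 genes with the largest ratio of EC4 to the mean of other labels plus 10 CPM, at 50 CPM or more. Markers, lists and members were chosen with earlier results of these data known. Replicate numbers come from the titles except for RW 3 and aJ1aJ2 1, whose titles carry none. Same-numbered RW and aN1aN2 samples did not deviate together across genes (correlations of 0.0149 and -0.0262), so they were not treated as pairs. Alternatives covered the cells, filter, scaling, tool, threshold, samples and blocks.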

Additional observations from a re-analysis of the deposited data

Results flagged for a closer look

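These results stand here because the change under a blockade differed between EC4 and EC1 by an interaction test of edgeR's quasi-likelihood fit, with the sample as a block and Benjamini-Hochberg adjustment over 5681 genes. Groups of 3 samples are too small for a check of single outlying samples.

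Haemoglobin transcripts had higher means under blockade than in RW in EC4, and lower means in EC1. The EC1 mean of RW rests on RW 2: summed erythroid markers in EC1 were at 4282, 21306 and 3937 CPM in RW, 549, 10915 and 11138 in aJ1aJ2, and 5067, 2360 and 7861 in aN1aN2, so the medians of both blockades lay above that of RW. Without RW 2 the receptor blockade difference was 2.49 for Hba-a2 (adjusted p = 0.0123) and 1.82 for Hbb-bs (adjusted p = 0.000468). Hba-a2 under receptor blockade went from a mean of 41.9 ± 12.6 CPM (SD, n = 3) to 294 ± 106 in EC4 and from 1694 ± 1665 to 970 ± 610 in EC1, a difference of responses of 3.38 (SE 0.54, adjusted p = 3.43e-05). Under ligand blockade it was 3.98 (SE 0.51, adjusted p = 1.26e-07), with EC4 at 616 ± 862 CPM in aJ1aJ2, where aJ1aJ2 3 alone held 1602 CPM. The difference for Hba-a1 was 2.69 (adjusted p = 3.30e-05) under ligand blockade and 1.99 (adjusted p = 0.00921) under receptor blockade. Hbb-bs differed by 2.36 (SE 0.33, adjusted p = 7.50e-07) and Hbb-bt by 2.26 (SE 0.48, adjusted p = 0.00597) under receptor blockade. Without aJ1aJ2 3 the ligand blockade differences had adjusted p-values of 0.130 for Hba-a2 and 0.999 for Hba-a1. Hba-a1 under receptor blockade was lost without RW 2 (0.126) and without aN1aN2 2 (0.0679), and Hbb-bt likewise (0.389 and 0.0549). The erythroid gene Slc4a1 had no UMI in EC4. The part of red cell RNA in these values was not tested.

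Ribosomal RNA-overlapping loci fell more in EC4. Gm42418 fell from 38651 ± 5854 CPM in RW to 4346 ± 503 in aN1aN2 in EC4 and from 5447 ± 1520 to 1690 ± 262 in EC1, a difference of -1.49 (SE 0.19, adjusted p = 1.42e-07). Lars2 differed by -1.35 (adjusted p = 0.000645) and AY036118 by -1.51 (adjusted p = 0.0289). Tg, the thyrocyte product, was at 2689 ± 591 CPM in RW and 2001 ± 183 in aN1aN2 in EC4 and at 853 ± 143 and 1501 ± 323 in EC1, a difference of -1.22 (SE 0.22, adjusted p = 0.000259). Msi2, an RNA-binding protein, differed by -1.22 (adjusted p = 0.0386) and the splicing factor Srsf7 by 1.49 (adjusted p = 0.0400). Calls of AY036118, Msi2 and Srsf7 were lost when single samples were left out. Apoe differed by 1.01 under ligand blockade (adjusted p = 0.0260), which was lost without RW 1 (0.246), RW 3 (0.403), aJ1aJ2 1 (0.142) or aJ1aJ2 3 (0.999).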

How the results depend on the processing

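The numbers of called genes are given for aJ1aJ2 against RW, aN1aN2 against RW and aN1aN2 against aJ1aJ2, which were 28, 654 and 533. They were 7, 384 and 341 at an adjusted p under 0.01, 11 (of 757 genes with an adjusted p), 410 and 318 with DESeq2, and 0, 220 and 203 with the same number of cells (43) from every sample, where 1049 genes could be tested and 90 had an unadjusted p under 0.05 for ligand blockade. Chosen after the data were seen, cells of 700 to 1500 UMIs gave 3, 302 and 267, EC1 and EC4 cells together 193, 2108 and 1556, and leaving out the 32 cells with UMIs of another class 27, 640 and 502. Cells with at least 1000 UMIs gave 6 and a fit of only RW and aJ1aJ2 15 for ligand blockade. Leaving out 1 sample gave 2 to 65, 465 to 706 and 350 (without aJ1aJ2 4) to 579. Responses that differed from EC1 numbered 3 and 28 under ligand and receptor blockade. For ligand blockade they were 0 with DESeq2, 5 with no filter, 0 with equal cells and 0 to 10 when 1 sample was left out (0 without aJ1aJ2 3, 7 without RW 1, 10 without aJ1aJ2 4). For receptor blockade they were 14 at 0.01, 67 with at least 1000 UMIs, 9 with equal cells and 10 to 37 when 1 sample was left out. In percentage points, the rise of the EC4 share of all cells in aN1aN2 was 6.65 with cells of at least 1000 UMIs, 15.1 without erythroid labels and 7.81 to 10.6 when 1 sample was left out. The same share in aJ1aJ2 ranged from -0.722 to 2.07. The rise among endothelial cells with at least 1000 UMIs was 3.98 in aJ1aJ2 and 21.8 in aN1aN2, and the value for aJ1aJ2 over all cells was 0.110 to 2.45 when 1 sample was left out. The difference of mean UMIs was -3.43 and -234, against medians that ranged from 82.2 to 222 and from -78.4 to 61.3.

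Directions turned with EC1 and EC4 together for Apoe (-0.21), H2-D1 (-0.16), H2-T23 (-0.00912), Hba-a2 (-1.08) and mt-Nd1 (0.081) in aN1aN2 against RW, Hba-a1 (-0.53) and Hba-a2 (-0.62) in aJ1aJ2 against RW, and Neat1 (0.069), mt-Co1 (0.15), mt-Cytb (0.029) and mt-Nd4 (0.010) in aN1aN2 against aJ1aJ2. They turned with equal cells for Hba-a1 (-0.018, aJ1aJ2), Pth (-0.037, aN1aN2) and the Apoe difference from EC1 (-0.12), and with 700 to 1500 UMIs for Igfbp3 (0.13, aN1aN2), none past the threshold. The cause was not tested. With the replicate block over RW 1 and 2 and aN1aN2 1 and 2, 534 genes were called, against 518 in the same 4 samples with no block. A block for series A and B gave 20 genes for ligand blockade. The doublet caller marked 0.515% or less of cells in 8 samples and 720 of 885 in aN1aN2 2, so the alternative without doublets was not run. With a median of 1045.5 UMIs per cell, 3101 of 52636 genes passed the filter on low counts. With no filter 15120 genes entered and 38, 605 and 537 were called.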

Other observations

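Among gene groups not described above, some MHC class I genes rose under receptor blockade. Of 13 tested members 5 rose and none fell in aN1aN2 against RW (against 11.2% of all genes higher), with H2-Q6 at 159, 193 and 216 CPM in RW and 367, 509 and 257 in aN1aN2 (log2 change 1.01, SE 0.26, adjusted p = 0.00517), by edgeR's quasi-likelihood test. No member was called without aN1aN2 2, DESeq2 called 1, and with EC1 and EC4 cells together 1 was higher and 4 were lower. The list's median change was -0.0537, so its middle gene did not follow the 5 that rose, and the near-identical H2-Q genes can share reads. Of 12 tested chaperones of the endoplasmic reticulum 4 fell and 2 rose, against 9.93% and 11.2% of all genes. Hsp90b1 was at 750, 904 and 922 CPM in RW and 362, 327 and 333 in aN1aN2 (log2 change -1.32, adjusted p = 1.44e-05), and Xbp1, the transcription factor that induces such chaperones, went from 194, 133 and 141 CPM to 234, 478 and 467 (1.25, adjusted p = 0.00193).

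Thrsp, a gene that responds to thyroid hormone and one of the leading EC4 genes, was at 477, 534 and 358 CPM in RW, 214, 503 and 443 in aJ1aJ2, and 1708, 1397 and 2028 in aN1aN2 (log2 change 1.92 for aN1aN2 against RW, SE 0.22, adjusted p = 3.57e-07). It and Klf9 were 2 of 3 tested thyroid hormone response genes and both rose, against 11.2% of all genes higher. Txnip, an inhibitor of glucose uptake, was at 768, 1067 and 772 CPM in RW and 3087, 3144 and 2456 in aN1aN2 (1.76, adjusted p = 1.84e-06), and with Ucp2 and Fabp4 made 3 of 6 tested fasting genes that rose, against the same 11.2%. Among junction genes 3 of 10 rose and 3 fell, against 11.2% and 9.93% of all genes, and the rises numbered 1 without RW 1, RW 2, aN1aN2 2 or aN1aN2 3. Gja1, the gap junction protein connexin 43, was at 362, 385 and 386 CPM in RW, 285, 308 and 348 in aJ1aJ2, and 122, 106 and 124 in aN1aN2 (-1.67, adjusted p = 5.93e-06). Pth, the parathyroid hormone gene, was at 221, 29.6 and 395 CPM in RW and 489, 4321 and 133 in aN1aN2, and its call (adjusted p = 0.00543) was lost without aN1aN2 2 (0.535).

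The other endothelial lists held few called genes or genes that went both ways in aN1aN2 against RW. Each count below stands against 11.2% of all genes called higher and 9.93% called lower in that comparison. Of 15 tested pan-endothelial genes 4 rose (Ramp2, Esam, Cd34 and Pecam1) and 4 fell (Kdr, Emcn, Ptprb and Eng), and the rises numbered 2 without RW 1, RW 2, aN1aN2 2 or aN1aN2 3. Esam, a junction protein, was at 927, 860 and 857 CPM in RW and 2025, 2127 and 1847 in aN1aN2 (log2 change 1.18, adjusted p = 7.14e-06), and Emcn was at 4104, 3854 and 4688 and at 1841, 1868 and 1628 (-1.24, adjusted p = 1.36e-06). In the arterial list 2 of 5 fell (Cxcl12 and Efnb2) and none rose, and in the venous list 2 of 7 rose (Lrg1 and Apoe) and 1 fell (Nrp2). Apoe lost its call without RW 1 (adjusted p = 0.117), RW 3 (0.0962) or aN1aN2 1 (0.113). Of 4 tested adhesion genes Ackr3 and Cd34 rose and Cxcl12 fell, of 6 insulin-like growth factor genes Igf1r rose and Igfbp7 fell, and of 2 proliferation genes Stmn1 rose. Igfbp7 and Stmn1 were each lost without RW 1. The 1 tested clock gene of the opposite phase and the 1 tested lymphatic gene were not called, and no MHC class II gene had enough counts to test.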
